A study of Homo sapiens with 8 samples.

Results

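The lysosomal genes described here are 41 named genes, of which 34 encode hydrolases of the lysosome and their luminal partners, with a membrane-bound acetyltransferase among them, and 7 encode other proteins of its membrane. All 41 of the 41 listed names were found, each on a single row, among the 12109 transcripts of the authors' deposited table of translation efficiency. They were taken by gene name, a rule that uses no measured value, but the list was chosen with earlier results of these data known. No filter on low values was applied to them here. RNA-seq and ribosome profiling had been carried out on human hepatic stellate cells, the cells that deposit scar matrix in the injured liver, labelled as a cell line. The 8 libraries formed 4 groups of 2, with each assay in cells labelled WT that received dsi-control and in cells labelled LARP6 kd that received dsiLARP6. All groups were grown in DMEM with serum, and no TGF-beta treatment is stated for these libraries. LARP6 is an RNA-binding protein of the La-related family, described as a regulator of collagen messages, and the comparison asks how the translation of other messages stands once it is depleted.

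The lysosome is the acidic organelle in which proteins, glycans, glycolipids and cholesterol esters are taken apart. Most of its soluble enzymes are translated on the endoplasmic reticulum, receive a mannose 6-phosphate tag in the Golgi and are carried to the organelle by receptors that recognise that tag. Membrane glycoproteins line it and protect it, and transporters export the products of digestion. In stellate cells and fibroblasts some cathepsins are also secreted and act on matrix, and cathepsin K is known as a strong collagenase.

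Translation efficiency is the ratio of ribosome footprints to RNA of the same transcript, given on a log2 scale in which 0 is near the typical transcript. The authors' deposited table holds 1 value per transcript for the comparison and none per library, so values by sample, a spread between replicates, a standard error and sequencing depth cannot be given. A transcript is called changed below where the authors' adjusted p is under 0.05, and any other change is given as a value only. In a bulk lysate, a change within cells and a change in the mix of cells cannot be told apart. Of 18 listed stellate cell markers 15 were measured, among them COL1A1, ACTA2 and PDGFRB, whereas of 21 markers of leukocytes and of macrophages, cells rich in lysosomes, 1 was measured (CD14). CD68, a macrophage marker outside that list and counted below with the other lysosomal membrane proteins, was also measured. It had a log2 change of 0.10 (adjusted p = 0.94, from the authors' deposited table). Hepatocyte markers were measured in 2 of 18 cases and endothelial ones in 3 of 11. The efficiency of 8 of the 15 stellate markers was called lower and that of 1 higher, beside 1.12% and 1.07% of all transcripts. The list median was −0.42, with values from −1.11 (ACTA2) to 0.40 (VIM) in the authors' deposited table, COL1A1 and PDGFRB both being at −0.57. The list includes collagen messages, and a ratio of footprints to RNA does not measure the amount of a marker. CD14 had a value of 0.09, the 2 hepatocyte markers values of −1.25 and 0.59 and the 3 endothelial markers values from 0.58 to 0.75 in the authors' deposited table, and 0 of these 6 were called (1, TEK, at an unadjusted p under 0.05). The part of these markers' changes in the lysosomal values was not tested. The efficiency of LARP6 itself had a log2 change of 0.07 (adjusted p = 0.98, from the authors' deposited table), a ratio that does not check the knockdown.

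The bases around the start codon are shown for the members on which the account turns, because this is where a scanning ribosome starts to translate. They are the called members CTSL and CTSK, then ARSB and DPP7, whose unadjusted p was under 0.05, and GLA and LGMN, which had the highest and the lowest efficiency of the 41. Each run is 5′ to 3′ on the coding strand, from the GENCODE release 29 transcript (GRCh38) that the table's row names, with the start codon in capitals, up to 9 bases before it and 18 after it.
CTSL: ttttaaaacATGaatcctacactcatcctt
CTSK: atcagcaggATGtgggggctcaaggttctg
ARSB: cggacaaggATGggtccgcgcggcgcggcg
DPP7: gcgacATGggctccgctccctgggcc
GLA: accgtgacaATGcagctgaggaacccagaa
LGMN: aggtgcagaATGgtttggaaagtagctgta
A purine 3 bases before the start codon and a G directly after it are the usual marks of a strong start. Of the 39 members with at least 9 annotated bases before the start, 37 (94.9%) had the purine, beside 87.0% of 10207 protein-coding transcripts of the table. The G was present in 18 of the 39 (46.2%), beside 53.7% of those transcripts. CTSL and CTSK both had the purine and both lacked the G, so the pair did not differ in either mark. They differed in the length before the start: the annotated 5′ untranslated region has 890 bases in CTSL, the longest of the 41, and 111 in CTSK. Whether these marks or this length relate to the changes was not tested.

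After LARP6 knockdown, 2 of the 41 lysosomal genes were called, and they were both cysteine cathepsins that went in opposite directions. The efficiency of CTSL, cathepsin L, rose 1.47-fold, and that of CTSK, cathepsin K, fell 1.32-fold, in the authors' deposited table. The other 39 members were not called. Called transcripts made up 2.20% of the authors' deposited table, 1.07% as higher and 1.12% as lower, so 2 of 41 (4.88%), with 1 in each direction, is a count that stands close to the background. Changes of the members were small beside those of the whole table. Only ARSB differed by 1.5-fold or more, 1 of 41 (2.44%) beside 27.3% of all transcripts, and 33 of 41 (80.5%) differed by less than 1.2-fold beside 42.1% of all. Other lysosomal lists had larger changes, given with the spread below.

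**Figure D1:**
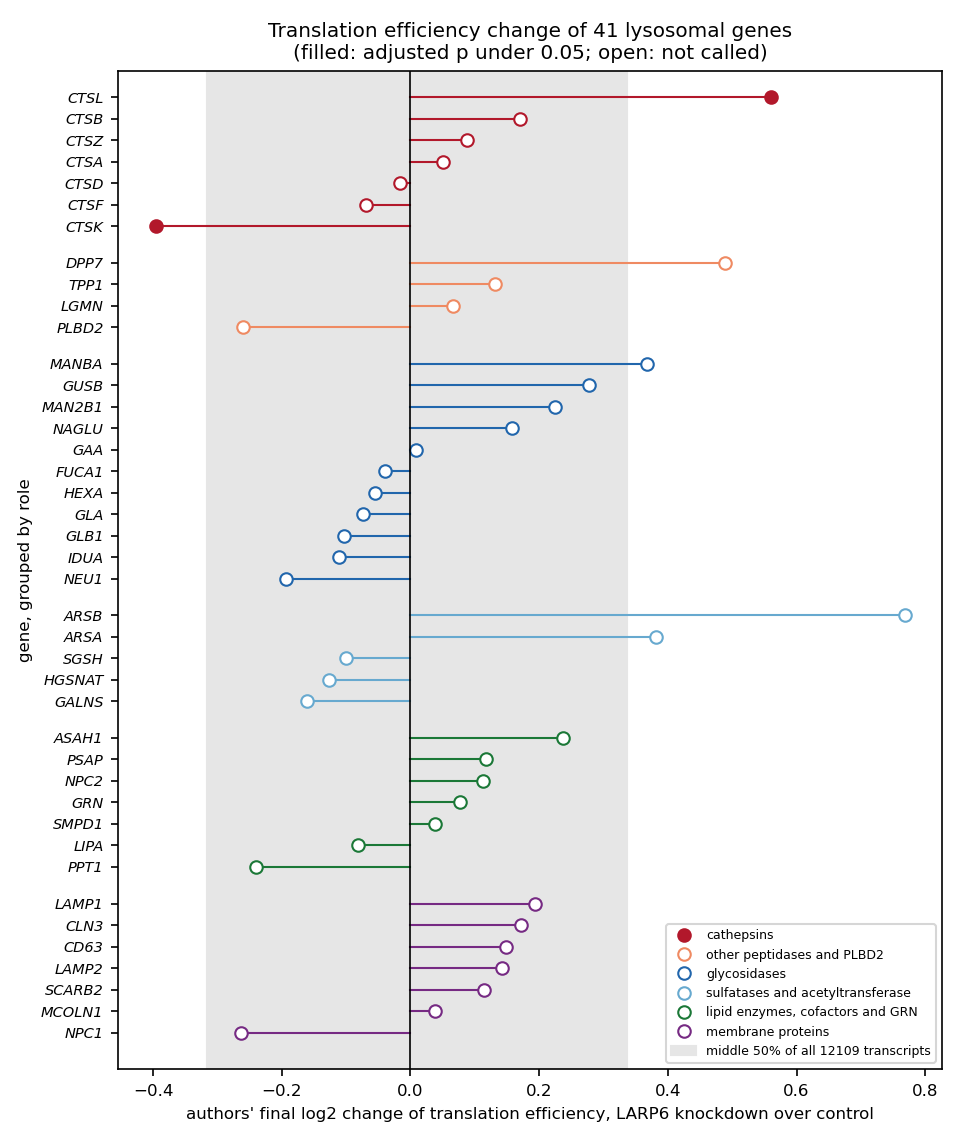
Log2 change of translation efficiency (x axis, knockdown over control, the authors' final value) for each of the 41 lysosomal genes, grouped by role (y axis), with filled points for an adjusted p under 0.05 and a grey band from −0.32 to 0.34 for the middle of all transcripts. The filled points are CTSL at 0.56 and CTSK at −0.40, and most open points lie within the band.

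The members' log2 changes ran from −0.40 to 0.77 in the authors' deposited table, with a median of 0.07 and an SD across members of 0.23, beside a median of 0.02 and an SD of 0.67 across all transcripts. Among the 27 members whose coding sequence shares no run of 28 bases with another gene, the median was 0.0379. Of the 41, 25 (61.0%) lay above 0 and 16 below, beside 50.8% of all transcripts above 0. The median absolute log2 change was 0.13 in the members and 0.33 in all transcripts of the authors' deposited table. It was 0.27 over the 133 measured genes of 6 related lysosomal lists, 0.28 in the other hydrolases and 0.28 in the other membrane proteins. The members' small changes were thus not shared by these lists. The part of read depth in these spreads was not tested. The members' values are descriptions of 41 chosen genes, and no test of the list was made.

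The 7 cathepsins are the largest set of proteases among the members, and both called members belong to it. CTSL (chromosome 9, 87725519 to 87731393, plus strand, GRCh38), a cysteine endopeptidase, had a log2 efficiency of 0.04 in the control and 0.60 in the knockdown, the former derived from the authors' deposited table. Its log2 change was 0.56, and the authors' deposited table gave it a final p of 1.43e-06 and an adjusted p of 0.000190. That moved CTSL from the 51.6th to the 71.9th percentile of all transcripts, from the middle of the table into its upper part.

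CTSK (chromosome 1, 150796208 to 150808323, minus strand, GRCh38) had a log2 efficiency of 1.90 in the control and 1.51 in the knockdown, the former derived from the authors' deposited table. The log2 change was −0.40, and the authors' deposited table gave it a final p of 0.000811 and an adjusted p of 0.0398. CTSK stayed among the efficiently translated messages, at the 95.2nd percentile before and the 92.1st after. The cathepsin K message thus exceeded that of cathepsin L by 1.86 log2 units of efficiency in the control and by 0.91 in the knockdown. The difference between the changes of the 2 genes was not tested, since the table has no error for it.

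The other cathepsins were not called. CTSB, an abundant cysteine cathepsin, came nearest, with a log2 change of 0.17 and a final p of 0.0527 (adjusted p = 0.50, from the authors' deposited table). The log2 changes of CTSZ, a carboxypeptidase, and of CTSA, the carboxypeptidase that also protects beta-galactosidase and neuraminidase, were 0.09 and 0.05 in the authors' deposited table. CTSD, the main aspartic protease of the lysosome, had a value of −0.02 and the cysteine cathepsin CTSF one of −0.07 in the authors' deposited table. All 7 cathepsins had a control efficiency above 0, with a median of 0.82 derived from the authors' deposited table.

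Reads from copies of a gene could enter its values, and the handling of such reads is not known here. Of all runs of 28 bases in the coding sequence of CTSL, 14.4% also occur in transcripts of other genes elsewhere in the genome, most of all the pseudogene CTSL3P (6.36%). Of those of CTSK, 0% did. Across the 41, 27 members had no run shared with another gene. A further 7 shared some with a gene at another place, led by LGMN at 17.0% with its pseudogene LGMNP1, CTSL and GUSB (9.49%). Another 7 shared runs only with a gene model that overlaps them, as CLN3 and CTSD did. The part of shared reads in the values was not tested.

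The next 4 members are 3 other peptidases and PLBD2, a hydrolase of the phospholipase B type. DPP7, a dipeptidyl peptidase (chromosome 9, 137110542 to 137115177, minus strand, GRCh38), had a log2 change of 0.49 with a final p of 0.0240 in the authors' deposited table, but its adjusted p of 0.34 did not pass. Its log2 efficiency was 0.05 in the control and 0.54 in the knockdown, the former derived from the authors' deposited table. The log2 changes of TPP1, the tripeptidyl peptidase lost in a childhood neuronal ceroid lipofuscinosis, and of LGMN, the asparaginyl endopeptidase legumain that processes cathepsins, were 0.13 and 0.07 in the authors' deposited table. PLBD2 had a value of −0.26 (final p = 0.0770) in the authors' deposited table. With CTSL, CTSK and ARSB, DPP7 makes 4 of 41 members (9.76%) under an unadjusted p of 0.05, beside 10.3% of all transcripts. Other thresholds on the authors' deposited table gave counts that can be read the same way: 1 member (CTSL) at an adjusted p under 0.01 beside 1.52% of all transcripts, and 3 (with ARSB) at an adjusted p under 0.1 beside 2.81%. The first of the authors' 2 methods alone called 3 members beside 3.77% of all transcripts, and the second alone called 2 beside 2.82%. With a change of at least 1.5-fold asked as well, 0 members passed beside 1.73% of all transcripts.

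**Figure D2:**
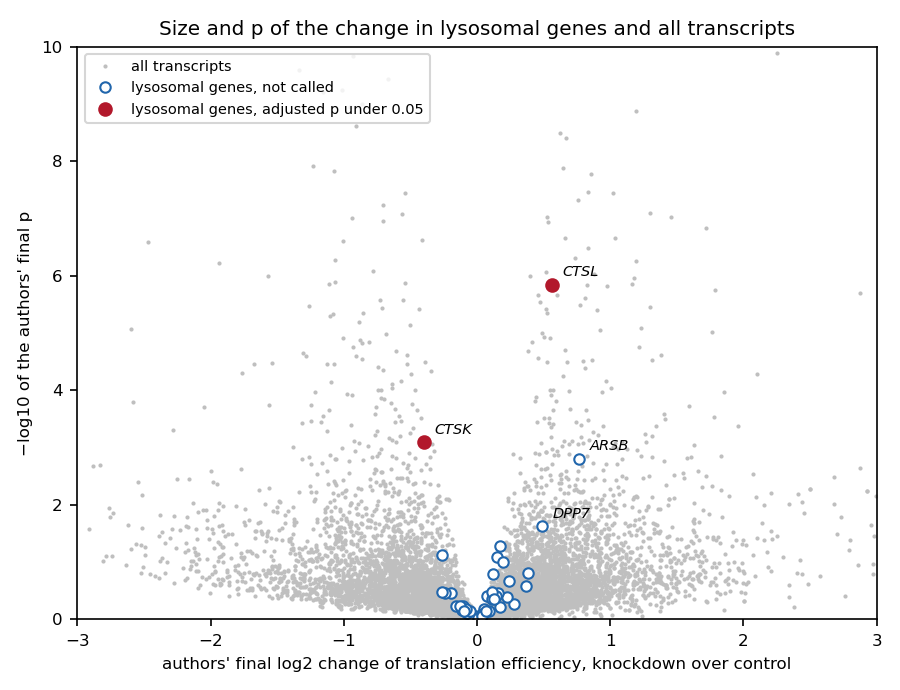
Log2 change (x axis, knockdown over control) against −log10 of the authors' final p (y axis) for all transcripts in grey and the 41 lysosomal genes in colour; 65 transcripts lie outside the plotted range of 3 log2 units and 10 on the y axis. CTSL and CTSK are filled, ARSB and DPP7 are named and open, and the other members lie low and near 0.

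Enzymes that remove sugars from glycoproteins, glycolipids and glycosaminoglycans formed the largest group, and 0 of the 11 were called in the authors' deposited table (0 at an unadjusted p under 0.05). Their log2 changes ran from −0.19 to 0.37 with a median of −0.04, and 5 of 11 lay above 0. MANBA, beta-mannosidase, had the highest value, 0.37 (adjusted p = 0.86), followed by GUSB, beta-glucuronidase, at 0.28, MAN2B1, alpha-mannosidase, at 0.23 and NAGLU, which acts on heparan sulfate, at 0.16 in the authors' deposited table. GAA, the alpha-glucosidase that breaks down glycogen, was at 0.01 and FUCA1, alpha-fucosidase, at −0.04 in the authors' deposited table.

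The remaining glycosidases lay below 0 without passing. HEXA, the alpha subunit of hexosaminidase A, had a log2 change of −0.06, GLA, alpha-galactosidase, one of −0.07 and GLB1, beta-galactosidase, one of −0.10 in the authors' deposited table. IDUA, the iduronidase of heparan and dermatan sulfate, was at −0.11 and NEU1, the neuraminidase that works in a complex with GLB1 and CTSA, at −0.19 in the authors' deposited table. The 3 partners of that complex thus had values of −0.19, −0.10 and 0.05, none of them called.

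The sulfatases and the acetyltransferase HGSNAT, which degrade sulfated glycans and sulfatide, included the largest change of the 41. ARSB, the sulfatase of dermatan and chondroitin sulfate (chromosome 5, 78777209 to 78986087, minus strand, GRCh38), had a log2 efficiency of 0.23 in the control and 1.00 in the knockdown, the former derived from the authors' deposited table. For the log2 change of 0.77 (1.70-fold) the authors' deposited table gave a final p of 0.00158 and an adjusted p of 0.0636, just outside the threshold, while CTSK at 0.0398 was just inside it. ARSA, the sulfatase of sulfatide, had a value of 0.38 (adjusted p = 0.76, from the authors' deposited table). SGSH and HGSNAT, which act on heparan sulfate, had values of −0.10 and −0.13, and GALNS, which acts on keratan sulfate, one of −0.16 in the authors' deposited table. NAGLU and GUSB, named above at 0.16 and 0.28, also act on heparan sulfate, so its enzymes lay on both sides of 0. Of these 5 genes, 0 were called, and 1 had an unadjusted p under 0.05.

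Messages for lipid-handling proteins and progranulin had high efficiencies, and none of them was called. PSAP, the precursor of the saposins that present glycolipids to their enzymes, had a log2 change of 0.12, NPC2, the soluble cholesterol carrier, one of 0.11 and GRN, progranulin, one of 0.08 in the authors' deposited table. ASAH1, acid ceramidase, was at 0.24 and SMPD1, acid sphingomyelinase, at 0.04 in the authors' deposited table. LIPA, the acid lipase of cholesterol esters and triglycerides, had a value of −0.08 and PPT1, the palmitoyl-protein thioesterase, one of −0.24 in the authors' deposited table. Of these 7, 0 were called in the authors' deposited table (0 at an unadjusted p under 0.05), and all 7 had a control log2 efficiency above 0, with a median of 1.09.

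The 7 membrane proteins held 6 values above 0 and 0 calls in the authors' deposited table (0 at an unadjusted p under 0.05). Of 31 other lysosomal membrane proteins 22 also lay above 0, beside 50.8% of all transcripts. LAMP1 and LAMP2, the heavily glycosylated proteins that line the lysosomal membrane, had log2 changes of 0.19 and 0.14 in the authors' deposited table. CD63, a tetraspanin of late endosomes and exosomes, was at 0.15 (final p = 0.0834) and SCARB2, the receptor that carries glucocerebrosidase to the lysosome, at 0.11 in the authors' deposited table. CLN3, which is mutated in juvenile Batten disease, had a value of 0.17 and MCOLN1, the calcium-releasing mucolipin channel, one of 0.04 in the authors' deposited table. NPC1, the transporter that takes over cholesterol from NPC2, was the member below 0, at −0.26 (adjusted p = 0.89, from the authors' deposited table), opposite in sign to its partner NPC2 though neither was called.

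The level of efficiency, as distinct from its change, was high in most members. The derived control log2 efficiency was above 0 in 35 of the 41 (85.4%), beside 50.1% of all transcripts and 48.5% of the 10551 protein-coding ones. Its median was 0.63 in the members, at the 73.4th percentile of the authors' deposited table, and 0.00 in all transcripts. In the upper 25% of the table stood 18 members (43.9%), and in the lower 25% stood 1, LGMN. In the knockdown 36 of the 41 (87.8%) were above 0, beside 50.3% of all transcripts. Of 34 other lysosomal hydrolases 27 were above 0 in the control (median 0.63), so the level was not particular to the members. So were 5 of 5 cystatins (median 0.93). The share was lower in other membrane proteins (17 of 31), the V-ATPase (11 of 18), regulators (12 of 23) and tagging and sorting proteins (7 of 22). These shares are a description of named genes and were not tested.

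GLA headed the order of levels with a control log2 efficiency of 2.07, followed by CTSK at 1.90, NPC2 at 1.78, LAMP2 at 1.70 and CD63 at 1.45, all derived from the authors' deposited table. At the other end stood LGMN at −1.01, GUSB at −0.43, HGSNAT at −0.18, ARSA at −0.16, MAN2B1 at −0.10 and GAA at −0.04. Partners of one task could stand far apart: LAMP1 had a control log2 efficiency of 0.08 and LAMP2 one of 1.70, and NPC1 had 0.27 where NPC2 had 1.78. Without errors it cannot be said which neighbours in this order differ. In the knockdown GLA and LGMN again held the ends, at 1.99 and −0.94, and CTSK stood 5th of the 41 in place of 2nd. ARSB moved from 29th to 11th and CTSL from 34th to 24th.

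**Figure D3:**
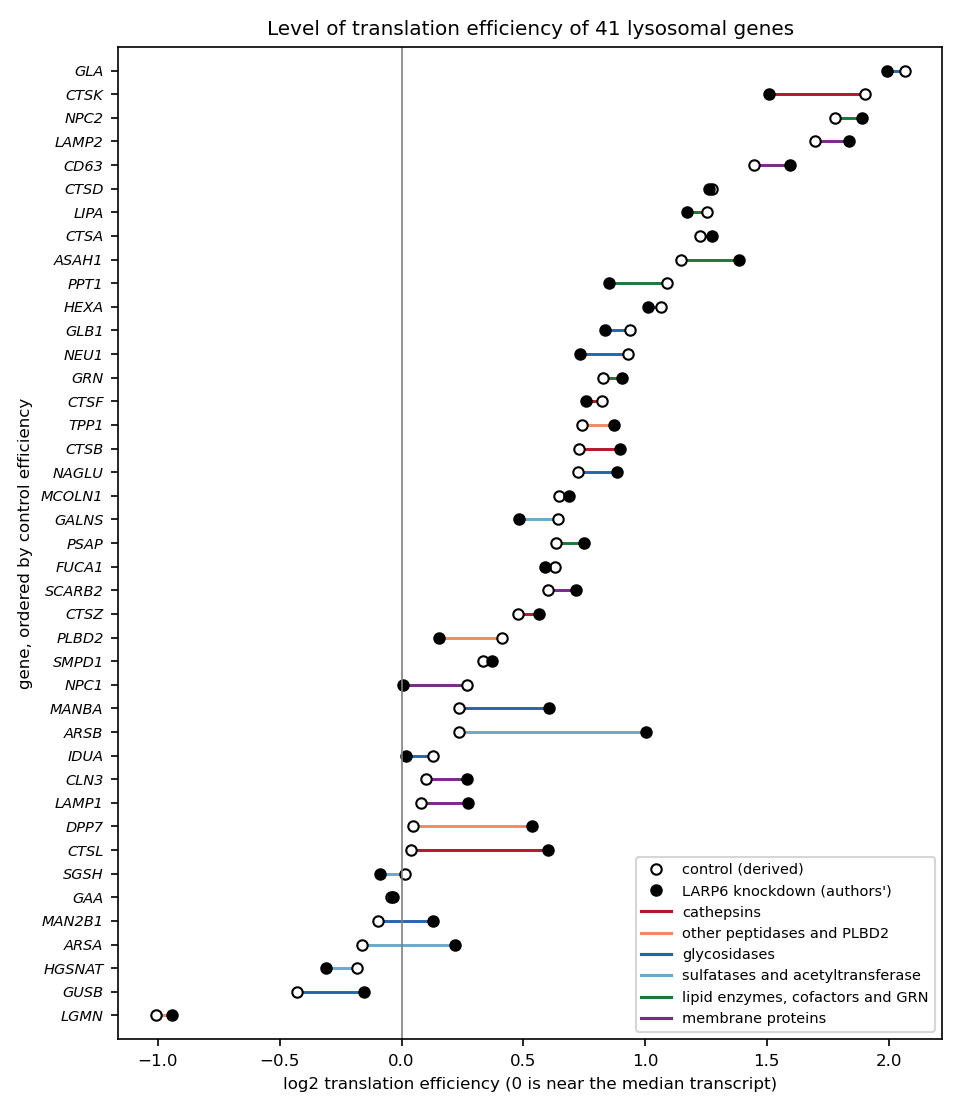
Log2 translation efficiency (x axis, 0 near the median transcript) of the 41 genes in order of their control level (y axis), with open points for the control, derived as the knockdown value minus the second method's change, and black points for the authors' knockdown value. Most pairs of points lie close together and to the right of 0, and ARSB, CTSL, DPP7 and CTSK have the longest connecting lines.

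The members' transcripts were also set beside all protein-coding transcripts for their structure. The matched transcripts had a median coding length of 1479 bases, beside 1389 bases in all of them. Their 3′ untranslated regions had a median of 561 bases beside 1036, and their 5′ untranslated regions one of 145 bases beside 185. The median GC content was 54.7% beside 49.2%. No ATG stood upstream of the start in 21 of 39 members (53.9%), beside 49.6% of all. CTSL had 1 upstream ATG, CTSK 2 and ARSB 5.

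Other genes of the organelle were taken from lists by function. Of 148 listed names 133 were measured, and the authors' deposited table called 4 of them higher and 1 lower (5 of 133, beside the 2.20% of all transcripts). An unadjusted p under 0.05 was held by 21 of the 133, beside 10.3% of all transcripts. By list these included 6 of 34 other hydrolases, 4 of 31 other membrane proteins, 3 of 18 V-ATPase genes and 5 of 22 tagging and sorting genes. No test of these lists was made. Among 34 other hydrolases and related luminal proteins 1 was called: IFI30, the thiol reductase that opens disulfide bonds in endocytosed proteins, rose by 0.48 (adjusted p = 0.0399, from the authors' deposited table). The other cathepsins in that list were not called: CTSS, which lies beside CTSK on chromosome 1, had a log2 change of 0.60 (adjusted p = 0.63), CTSC one of 0.13, CTSO one of −0.64 and CTSH one of −0.94 in the authors' deposited table. Among 31 other membrane proteins, TMEM192, a structural protein of the lysosomal membrane, rose by 1.63 (adjusted p = 0.0433, from the authors' deposited table), the largest called change of these lists.

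The genes listed here for the proton pump and for the sorting machinery were nearly all measured (18 of 18 and 22 of 24). All 18 listed subunits and accessory proteins of the V-ATPase, which acidifies the lysosome, were measured, and 1 was called: ATP6V0D1, a subunit of the membrane sector, rose by 0.55 (adjusted p = 0.0336, from the authors' deposited table). The list's median log2 change was 0.16, and 13 of 18 lay above 0. Of 22 measured proteins that tag or sort lysosomal enzymes 1 rose and 1 fell. IGF2R, the large mannose 6-phosphate receptor that also takes up insulin-like growth factor 2, fell by 0.72 (adjusted p = 0.00701), and AP1M1, a subunit of the AP-1 adaptor of the trans-Golgi network, rose by 0.66 (adjusted p = 0.0379, from the authors' deposited table). The smaller receptor of the same tag, M6PR, had a value of 0.09 (adjusted p = 0.97, from the authors' deposited table). The IGF2R message stood low in efficiency, at −1.15 in the control and −1.87 in the knockdown, and M6PR high, at 1.29 and 1.38, with control values derived from the authors' deposited table.

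Regulators of the organelle and cathepsin inhibitors held no call. Of 23 measured regulators, which include genes of the TFEB family, the Ragulator and Rag complexes, mTORC1, BORC and folliculin with its partners, 0 were called in the authors' deposited table (2 at an unadjusted p under 0.05). TFEB, the transcription factor that drives lysosomal genes, had a log2 change of 0.91 (adjusted p = 0.93) and its relative TFE3 one of −0.29 in the authors' deposited table. Of 5 measured cystatins, which inhibit cysteine cathepsins, 0 were called (1 at an unadjusted p under 0.05). CST3, the secreted cystatin C, had a value of −0.03 and CSTB, the intracellular cystatin B, one of 0.30 (adjusted p = 0.40, from the authors' deposited table).

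**Figure D4:**
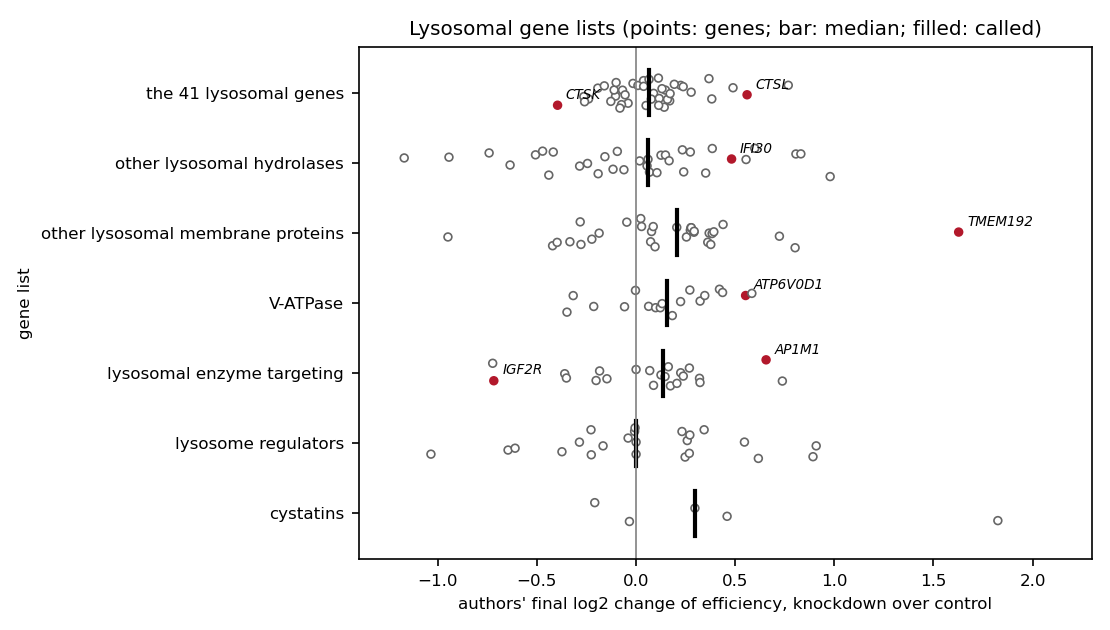
Log2 change of translation efficiency (x axis, knockdown over control) of each measured gene in the 41 lysosomal genes and 6 related lists (y axis; vertical scatter within a list has no meaning), with a bar for the median and filled points for an adjusted p under 0.05. The 41 lysosomal genes lie between −0.40 and 0.77, and the filled points outside them are IFI30, TMEM192, ATP6V0D1, AP1M1 and IGF2R.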

How the data were processed

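The 8 libraries underlie 1 table of 12109 transcripts, which holds the authors' own comparison. Per the labels' protocols, RNA was extracted with Trizol, and for ribosome profiling cells were treated with cycloheximide, lysates digested with RNase I and ribosomes pelleted. Tools named in the submitters' processing notes are cutadapt and Bowtie, with hg38 and GRCh38 as builds. Versions, footprint sizes, RNA selection and the program behind the comparison were not given in the sources used here. Per the file headers, the deposited values are log2 changes from 2 methods, a final log2 change and the knockdown log2 efficiency, with p-values per method, final and adjusted. The final p-value deposited by the authors is the larger of the 2 methods' in 12109 transcripts (relative tolerance 1e-09), and its Benjamini-Hochberg adjustment over the table differs from the deposited one by at most 6.3e-15.

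Control efficiency was computed here by subtracting the log2 change of the second method from the knockdown's log2 efficiency. Row digits were matched to GENCODE release 29 (GRCh38) for 11581 transcripts, all members included. A hit with the row's symbol was preferred, and where none had it a single hit on the digits alone was accepted. Python 3.11.15 was used, and the adjustment was tested on simulated data. The planned count model was not run, because the table holds no counts per library. Members, related lists and rules were chosen with earlier results of these data known. Every member is named; of the 6 related lysosomal lists the called genes are named. Cell type markers are given as counts, and those named were chosen after their values were seen. So were CTSS, CTSC, CTSO, CTSH, CD68, M6PR, TFEB, TFE3, CST3 and CSTB. Whether replicates came from separate cultures is not in the labels, and the p-values may then reflect technical spread alone.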

Additional observations from a re-analysis of the deposited data

How the results depend on the processing

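The count of 2 called members became 1 (CTSL) at an adjusted p under 0.01 and 0 when a change of at least 1.5-fold was also asked, since CTSL reached 1.47-fold. It was 4 at an unadjusted p under 0.05, 3 at an adjusted p under 0.1 or by the first method alone (ARSB added), and 2 by the second method alone or adjusted over protein-coding transcripts. CTSL and CTSK kept their direction and stayed under 0.05 by either method, which are nearly the same values (Pearson r of 0.999 across transcripts) and no independent check. The members' median log2 change of 0.07 was 0.0485 after subtracting the protein-coding median and 0.0379 among the members with no shared run of 28 coding bases, and it stayed at 0.07 by either method and without the cathepsins. The adjustment over protein-coding transcripts and the restriction to members without shared runs were chosen after seeing the data. No paired analysis was possible because no value stands for a single library, and for the same reason count models, filters and leaving out replicates were not run. Depth is unknown, so which members were too shallow to be called cannot be said.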
